A study of Homo sapiens with 12 samples.

Results

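The β1,4-galactosyltransferase genes B4GALT1 to B4GALT7 and the protein O-glucosyltransferase genes POGLUT1 to POGLUT3 were followed across 12 RNA-seq libraries of SW1353 cells. They were found by matching Ensembl identifiers to these symbols, which gave 10 of the 40490 genes listed. Of these, 8 were taken for their family name. The families were followed with earlier results of these data known, so the p-values of these 8 do not allow for that choice. B4GALT1 and POGLUT3 were chosen by their signal in the 4 groups, which was low only in the mimic control. For these genes every value is a description and no test is given, and their SE and intervals do not allow for this choice.

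SW1353 is an established human chondrosarcoma line, here transfected for 48 hours at 50 nM with 1 of 4 synthetic oligonucleotides, with 3 libraries for each. The mimic supplies extra miR-455-3p, a microRNA of cartilage, and the inhibitor is an oligonucleotide that pairs with that microRNA and blocks it. The mimic control and the inhibitor control are control oligonucleotides, so every group received one. The cells are 1 tumour-derived line, and no source used here says if the 3 libraries of a group are separate transfections, so p-values measure only the spread between these libraries. The cartilage regulator SOX9 was present in all libraries (signal 994 to 1415), but the defining cartilage collagen COL2A1 was listed at 0 in all 12 and ACAN lay between 5.75 and 28.4. COL1A1, a collagen of bone and fibroblasts, had a mean of 4842 in the mimic control against 6906 to 8352 in the other groups. Of the other mesenchymal markers, COL1A2 had a mean of 11307 there against 13080 to 14676. VIM had 35383 against 34806 to 42168, and FN1 had 78236 against 70359 to 79000. The epithelial, blood and endothelial markers EPCAM, CDH1, PTPRC, PECAM1 and CDH5 had medians of 1.66 to 4.72. CDH1 varied between libraries, from 0.711 to 41.1. Its mean was 15.5 in the mimic control, 5.89 in the mimic, 3.72 in the inhibitor control and 13.5 in the inhibitor.

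Values are a signal, namely estimated counts per gene divided by a size factor per library, which is not corrected for gene length. The signal of a library summed to between 10974100 and 12016800, and the mimic control libraries to between 11193600 and 11344100. Mitochondrial transcripts took 8.21% to 9.93% of the mimic control libraries and 6.09% to 9.43% of the others. Mimic replicate 3 stood apart from its group in the number of genes called, since 125 genes passed in mimic against mimic control with it and 797 without it. Where leaving it out changed a call of a member or a named gene, both values are given.

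B4GALT enzymes sit in the Golgi apparatus and move galactose from UDP-galactose onto a growing sugar chain. B4GALT1, B4GALT2, B4GALT3 and B4GALT4 galactosylate N-acetylglucosamine at the ends of glycans, B4GALT5 and B4GALT6 make lactosylceramide, from which most glycosphingolipids are built, and B4GALT7 adds the first galactose of the linker that ties chondroitin and heparan sulfate chains to proteoglycans. POGLUT enzymes work in the endoplasmic reticulum and add glucose to EGF repeats, small folded units found in Notch receptors, their ligands and fibrillins. In cartilage, proteoglycan chains and keratan sulfate, a polymer of galactose and N-acetylglucosamine, hold the water of the matrix.

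The mature microRNA and the matches to it in the family are shown because the mimic and inhibitor act through this sequence. In the RNA, capitals mark the seed (bases 2 to 8), taken from RefSeq at chr9:114209487-114209507 on the plus strand (GRCh38.p14). In the 3′ UTR sites, read from GENCODE release 29 transcripts, capitals mark the matching bases:
hsa-miR-455-3p: gCAGUCCAugggcauauacac
B4GALT2 site at chr1:43990493-43990499: tgcctgccagaGGACTGAccacagcctgg
B4GALT2 site at chr1:43990539-43990545: gaggacctccaGGACTGAgactgggctct
B4GALT3 site at chr1:161171664-161171670: tccctcactgcTGGACTGgagctgggctc

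The search covered the longest 3′ UTR of each gene for GGACTG, the reverse complement of seed bases, extended to 7 bases by T before it or A after it. B4GALT2 (chr1:43978943-43991170, plus strand) held 2 matches of 7 bases in exon 7 of 7, within a 3′ UTR of 725 bases. B4GALT3 (chr1:161171310-161177968, minus strand) held 1 match of 7 bases in exon 8 of 8, within 509 bases. The other 8 members held none, including B4GALT1 with 2820 bases and POGLUT3 with 2725, and merging the 3′ UTRs of all transcripts added 1 match of 6 bases in B4GALT1. Of 18835 protein coding genes, 17.9% held a match of 7 or 8 bases and 30.9% one of 6 or more. A match is a description of letters, not a shown site of action.

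B4GALT1, the main N-glycan galactosyltransferase of most cells and the partner of α-lactalbumin in lactose synthesis in milk, lies at chr9:33104082-33167356 on the minus strand. Its signal was 2097, 2173 and 1995 in the mimic control libraries. It was 8089.9, 7681 and 6997 in the mimic libraries. It was 7080.4, 7086 and 7117 in the inhibitor control libraries and 6248, 6342 and 6019.8 in the inhibitor libraries. All 3 mimic control libraries lay far below the other 9, and the lowest of those 9 was 2.77 times the highest mimic control library. The mean was 2088 ± 89.3 (SD, n = 3) in the mimic control and 7589 ± 552 (SD, n = 3) in the mimic, a ratio of 3.63. On the log2 scale the difference was 1.86 ± 0.069 (SE), and 1.92 without mimic replicate 3. In RNA from whole cultures, fewer cells that express a gene and less RNA per cell cannot be told apart. COL1A1 and COL1A2 also had their lowest group means in the mimic control, while the mesenchymal markers VIM and FN1 did not. The mitochondrial share there overlapped that of the other groups. The part of these markers and of the mitochondrial share in the result was not tested.

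The inhibitor control was also far above the mimic control, although both are control groups. Its mean B4GALT1 signal was 7095 ± 19.9 (SD, n = 3), 3.40 times that of the mimic control, with a log2 difference of 1.77 ± 0.069 (SE). Both comparisons use the same mimic control libraries. The mimic and inhibitor control groups overlapped, with a ratio of 1.07. The inhibitor mean of 6203 ± 166 (SD, n = 3) was 0.874 times that of its control, a log2 difference of -0.19 ± 0.069 (SE). These 2 groups did not overlap, as for 25.2% of all genes.

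POGLUT3, formerly KDELC2, adds glucose to EGF repeats of Notch receptors and fibrillins and lies at chr11:108472105-108498432 on the minus strand. Its signal was 231, 219.6 and 239.7 in the mimic control. It was 676, 528 and 511 in the mimic, 489, 435 and 566 in the inhibitor control, and 483, 438 and 514 in the inhibitor. The mimic control was again below the other 9 libraries, whose lowest was 1.81 times its highest, and the other groups overlapped one another. The mean was 230.006 ± 10.1 (SD, n = 3) in the mimic control and 572 ± 91.0 (SD, n = 3) in the mimic, a ratio of 2.49 and a log2 difference of 1.30 ± 0.13 (SE), or 1.38 without mimic replicate 3. The inhibitor control was 2.16 times the mimic control (log2 1.10 ± 0.13, SE), and the inhibitor was 0.963 times its own control (log2 -0.05 ± 0.13, SE).

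**Figure D1:**
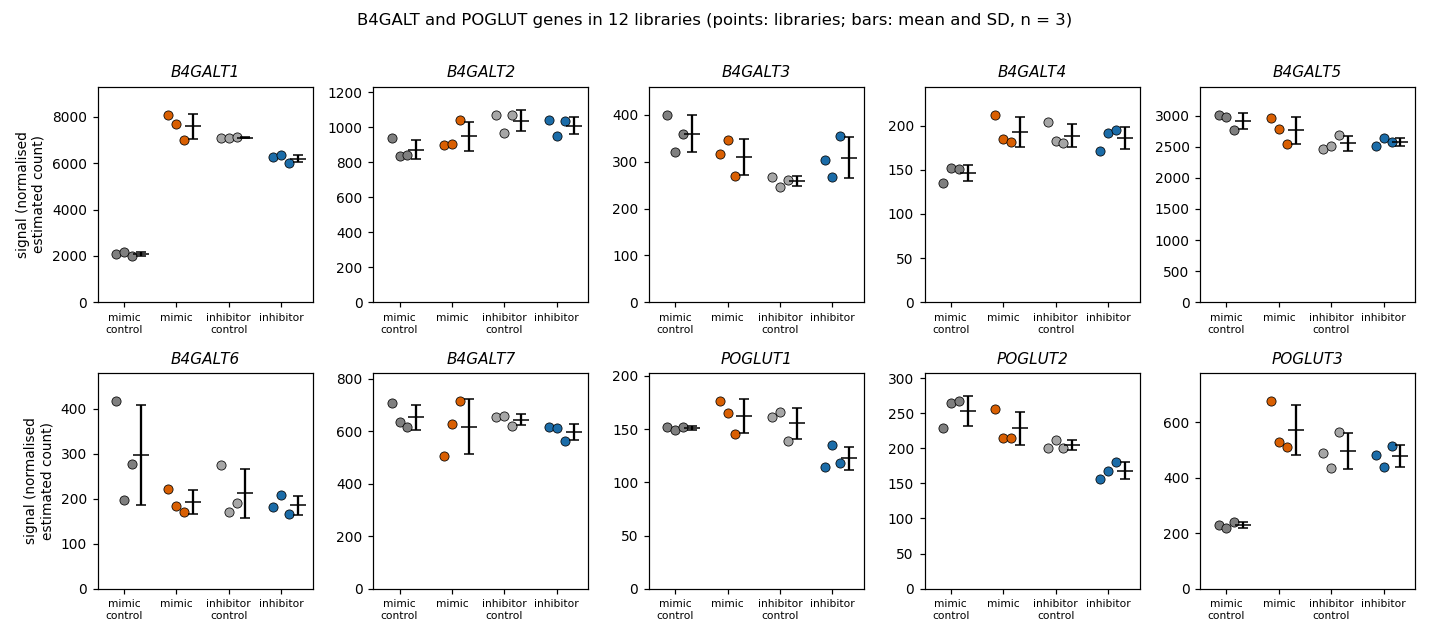
Signal of the 10 genes on linear axes from 0, with 1 point per library and the mean and SD (n = 3) beside each group. B4GALT1 and POGLUT3 are low in the 3 mimic control libraries (1995 to 2173 and 219.6 to 239.7) and higher in all 9 others, while B4GALT5 lies between 2468 and 3012 throughout.

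B4GALT4 was the next member below the other 9 libraries in the mimic control, by a much smaller margin. B4GALT4, which galactosylates sulfated N-acetylglucosamine in keratan sulfate, lies at chr3:119211732-119241103 on the minus strand. Its signal was 135, 152 and 151 in the mimic control and 212, 185 and 182 in the mimic. It was 204, 182 and 179.9 in the inhibitor control and 171, 192 and 195 in the inhibitor. The lowest of those 9 was 1.13 times the highest mimic control library. Over all 16468 genes tested, 4.04% lay below the other 9 libraries in the mimic control and 2.26% above them. Of the 10 members, 3 lay below and none above, and 2 of the 3 had been picked for that pattern.

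Genes whose 9 other libraries all lay over 2 times the highest mimic control library were counted as a description. There were 3 among the 16468 genes tested. They were B4GALT1, the cell cycle transcription factor FOXM1 (ratio 2.41) and the p53-induced oxidoreductase TP53I3 (ratio 2.23), a set named after its values were seen. B4GALT1 had been chosen for its low mimic control, so its presence in this set is no support for the gene being unusual.

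Levels between genes were compared as signal per kb of merged exon (1000 bases). In the mimic control B4GALT5 was the highest of the 10 at 617 ± 28.1 per kb (SD, n = 3), and B4GALT1 came next at 426 ± 18.2. In the other groups this order was the opposite. B4GALT1 had means of 1548, 1448 and 1266 per kb in the mimic, inhibitor control and inhibitor, against 585, 541 and 546 for B4GALT5, with no overlap within any group. B4GALT2 had rank 3 and B4GALT7 rank 4 in every group, with means of 231 to 275 and 121 to 132 per kb. POGLUT3 had rank 8 in the mimic control at 46.1 per kb and rank 5 elsewhere at 95.8 to 115, where its range overlapped that of at least 1 neighbour in the order. POGLUT1 and B4GALT4 were the lowest of the 10 in every group, at 17.3 to 22.8 and 20.4 to 27.0 per kb, and their ranges overlapped only in the mimic control.

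The summed level of the B4GALT family followed B4GALT1. B4GALT1 held 27.1% ± 1.27 (SD, n = 3) of the family's signal per kb in the mimic control and 58.3% ± 1.39, 57.3% ± 0.732 and 54.1% ± 0.835 in the mimic, inhibitor control and inhibitor. The other 6 genes summed to 1150.2, 1104, 1079 and 1075 per kb in those groups. POGLUT3 held 26.5% ± 1.60 of the POGLUT signal per kb in the mimic control and 48.9%, 47.8% and 52.0% in the other groups, and POGLUT1 with POGLUT2 summed to 128, 119, 108 and 88.3 per kb.

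**Figure D2:**
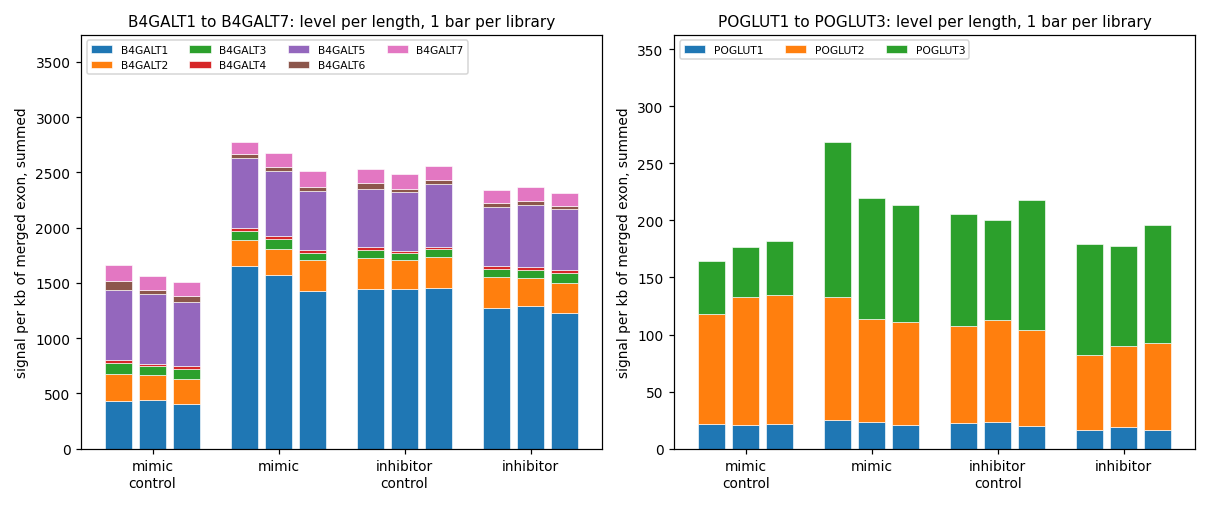
Signal per kb of merged exon, stacked by gene, with 1 bar per library. The B4GALT1 segment is 407 to 443 per kb in the mimic control and 1228 to 1651 in the other 9 libraries, and the POGLUT3 segment is 44.0 to 48.0 against 87.1 to 135.

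The remaining 8 members were tested in a limma fit over all genes. No share of all genes was taken at an unadjusted p of 0.05, here or in the comparisons below. Whether counts at that cutoff exceed such a share was therefore not examined. In mimic against mimic control none of the 8 passed an adjusted p of 0.05, where 0.759% of all genes did, and 2 had an unadjusted p under 0.05. These were B4GALT4 (log2 0.40 ± 0.11, SE, adjusted p = 0.140, limma), higher in 3 of 3 mimic libraries than in any control library, and B4GALT6 (log2 -0.57 ± 0.24, SE, adjusted p = 0.331, limma). B4GALT6, a lactosylceramide synthase at chr18:31622247-31685836 on the minus strand, varied most among replicates, at 417, 198 and 278 in the mimic control and 222, 184 and 171 in the mimic. The groups of B4GALT4 did not overlap, as for 16.4% of all genes. The median log2 difference of the 8 was -0.09, against 0.01 over all genes tested.

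The interval of each of these differences sets how large a change could have been missed. For B4GALT5 (chr20:49632945-49713878, minus strand), the more abundant lactosylceramide synthase here, the 95% interval of the mimic difference ran from -0.24 to 0.08. For B4GALT7 (chr5:177600100-177610347, plus strand) it ran from -0.34 to 0.16 and for B4GALT2 from -0.07 to 0.31. B4GALT3, which holds the 7-base match TGGACTG, had an interval of -0.50 to 0.07, and its libraries were 399.9, 321 and 358 in the mimic control and 316, 345 and 269 in the mimic.

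In inhibitor against inhibitor control none of the 8 passed, where 1.55% of all genes did, and 2 had an unadjusted p under 0.05. These were the other POGLUT members, both lower in the inhibitor. POGLUT1, the enzyme called Rumi in the fly, which glucosylates Notch EGF repeats, lies at chr3:119468938-119494708 on the plus strand. Its signal was 161, 166 and 139 in the inhibitor control and 115, 135 and 118 in the inhibitor (log2 -0.34 ± 0.12, SE, adjusted p = 0.227, limma). POGLUT2, formerly KDELC1, lies at chr13:102784281-102799007 on the minus strand. Its signal was 201, 212 and 199.9 in the inhibitor control and 156, 167 and 181 in the inhibitor (log2 -0.28 ± 0.11, SE, adjusted p = 0.278, limma). In both genes all 3 inhibitor libraries lay below all 3 control libraries. B4GALT3 and B4GALT7 did not overlap either, by gaps of 268.1 against 267.9 and of 615.2 against 618.9, so 4 of 8 members were apart, against 25.2% of all genes. With library weights in the fit, POGLUT1 passed at an adjusted p of 0.0359 (limma), where 1260 of all genes passed, against 255 without weights. POGLUT2P1, a pseudogene copy of POGLUT2, could share reads with it.

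In inhibitor control against mimic control 1 of the 8 passed, in a comparison where 10.1% of all genes did and 5.38% passed as lowered. B4GALT3 was lowered, at 268, 246 and 262 in the inhibitor control against 399.9, 321 and 358 in the mimic control, a ratio of 0.719 (log2 -0.47 ± 0.13, SE, adjusted p = 0.0406, limma). All 3 inhibitor control libraries lay below all mimic control libraries. The call was lost when any 1 of the 6 libraries compared, or inhibitor replicate 1, was left out, with an adjusted p of up to 0.129. B4GALT3 shares 1118 exon bases with PPOX on the other strand, and PPOX had a log2 difference of 0.11 here (adjusted p = 0.741, limma). B4GALT4 was higher in 3 of 3 inhibitor control libraries (log2 0.37 ± 0.11, SE, adjusted p = 0.0572, limma) and passed in 7 of the other settings tried. Without mimic replicate 3, which this comparison uses only for the shared spread, B4GALT4 (adjusted p = 0.0291), B4GALT2 (log2 0.25, 0.0269) and B4GALT5 (log2 -0.19, 0.0354, limma) passed as well as B4GALT3. That fit called 3751 of the 16468 genes tested, against 1667 with all 12 libraries. Groups did not overlap for 5 of the 8 members, against 41.2% of all genes.

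The mimic effect minus the inhibitor effect passed for none of the 8, where 0.850% of all genes passed, and 3 had an unadjusted p under 0.05. They were B4GALT3 (log2 -0.46, adjusted p = 0.309, limma), B4GALT4 (0.42, adjusted p = 0.281) and POGLUT1 (0.44, adjusted p = 0.304).

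**Figure D3:**
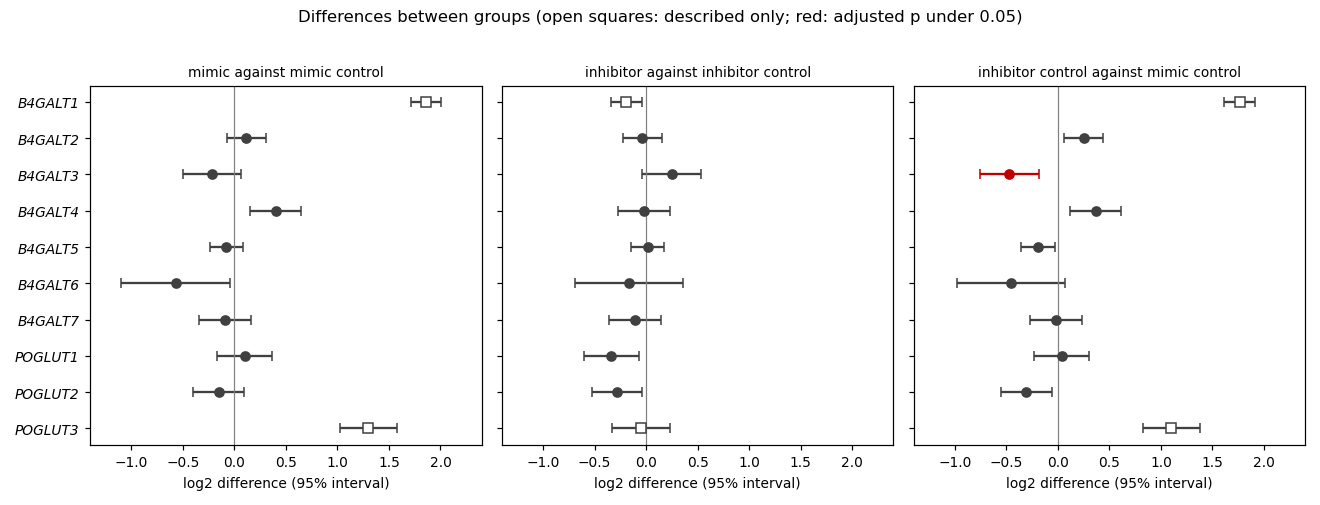
Log2 differences between group means of the 10 genes with 95% intervals from the limma fit, in 3 comparisons. Intervals marked by open squares do not allow for the choice of the genes by their values. Open squares mark B4GALT1 and POGLUT3, which are described only. Their values lie at 1.86 and 1.30 in mimic against mimic control and at 1.77 and 1.10 in inhibitor control against mimic control, and of the others only B4GALT3 (red, -0.47) passed.

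Genes whose levels varied most like those of B4GALT1 and POGLUT3 were ranked by Pearson correlation of log2 values over the 12 libraries, as a description. All points share the same libraries, and the mimic control sets most of the range. For B4GALT1 the 6 highest of 12953 genes were CKAP4 (r = 0.992), PDIA6 (0.983), PPIB (0.977), FOXM1 (0.977), MAZ (0.971) and FECH (0.969). CKAP4 is a membrane protein of the rough endoplasmic reticulum, PDIA6 a disulfide isomerase, PPIB a prolyl isomerase that acts on collagen, MAZ a zinc finger factor and FECH the last enzyme of heme synthesis. POGLUT3 had rank 8 on this list (r = 0.967). For POGLUT3 the 6 highest were GSS (0.988), SPG21 (0.984), PDIA6 (0.983), GNA12 (0.980), CRK (0.971) and CKAP4 (0.970), where GSS is glutathione synthetase, GNA12 a G protein subunit and CRK a signalling adaptor.

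These 10 genes were lower in the mimic control than in the mimic by smaller factors than the 3.63 of B4GALT1, and PDIA6 and FOXM1 by larger ones than the 2.49 of POGLUT3. PDIA6 was 4498, 4301 and 4298 in the mimic control and 8402 to 12539 in the other 9 libraries. CKAP4 was 1166, 1218 and 1185 against 1799 to 2092. The mimic to mimic control ratio was 2.55 for PDIA6, 2.90 for FOXM1, 2.07 for MAZ, 1.63 for CKAP4 and 1.296 for GSS. In the 9 libraries without the mimic control, chosen after seeing the data, the correlation with B4GALT1 was 0.751 for CKAP4, 0.124 for FOXM1 and -0.20 for MAZ. There it was 0.611 between B4GALT1 and POGLUT3, and 0.953 between POGLUT3 and SPG21.

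**Figure D4:**
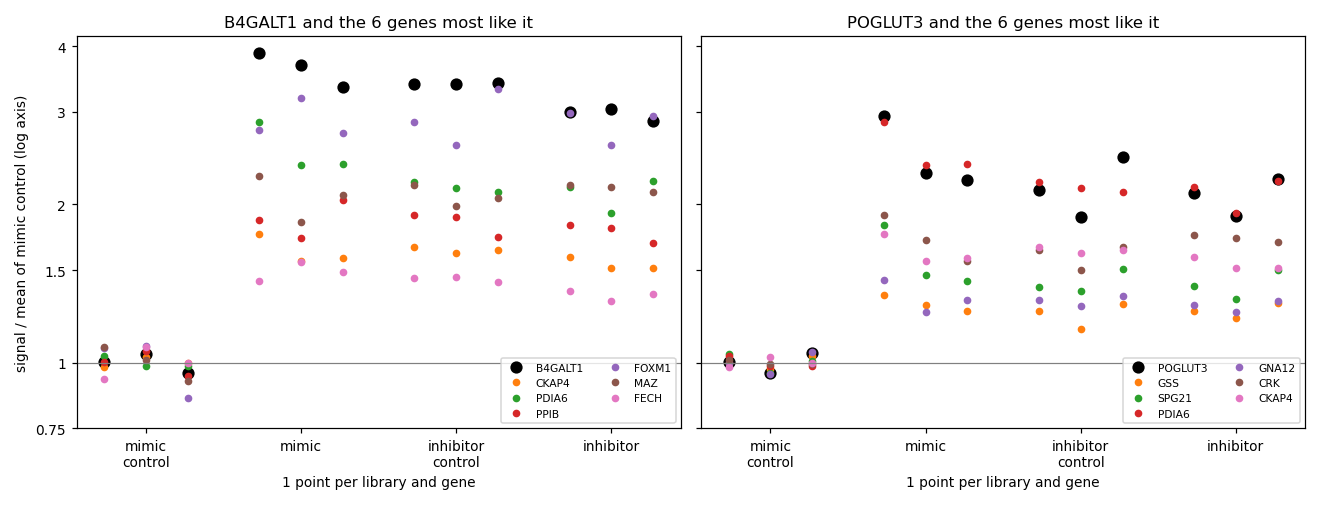
Signal of B4GALT1 and POGLUT3 (black) and of the 6 genes most like each, divided by the gene's mimic control mean, on a log axis with 1 point per library. All genes are near 1 in the mimic control. In the other 9 libraries B4GALT1 is the highest of its panel in most, with mean ratios of 3.63, 3.40 and 2.97 in the mimic, inhibitor control and inhibitor.

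None of the genes next to B4GALT1 and POGLUT3 passed the test in any comparison. SMU1, the nearest tested protein coding gene on 1 side of B4GALT1, had a mean of 921 in the mimic control and 1033 in the mimic (log2 0.16, adjusted p = 0.599, limma), and BAG1 on the other side 596 and 539 (log2 -0.15, adjusted p = 0.587). Beside POGLUT3, EXPH5 had means of 52.8 and 42.0 (log2 -0.29, adjusted p = 0.651) and C11orf65 of 12.8 and 27.8 (log2 1.05, adjusted p = 0.306, limma). Antisense genes overlap B4GALT1, B4GALT4 and B4GALT6 and were not among the genes tested, and no source used here says if the counting used strand, so reads of both strands may be mixed.

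GC boxes, the letters bound by SP family factors, were counted in the promoters of the members as a description. A link between these letters and the levels was not tested. The letters GGGCGG were counted on both strands in RefSeq promoters of 300 bases (250 before and 50 after the start). The 2 B4GALT1 promoters held 6 and 7, that of POGLUT3 held 5, and that of B4GALT7 held 5. B4GALT5, B4GALT4 and 1 promoter of B4GALT3 held 3 each. The 2 B4GALT2 promoters held 2 and 0, that of POGLUT1 held 1, and those of POGLUT2 and the other of B4GALT3 held 0. At least 5 were found in 5.14% of 35116 promoters and any in 45.0%. The bases G and C made up 77.7% and 78.3% of the B4GALT1 promoters, 76.3% for POGLUT3 and 76.7% for B4GALT7. They made up 77.3% for B4GALT5, against a median of 58.7% over all promoters. The 2 B4GALT1 promoters overlap, so a GC box may be counted in both. B4GALT6 was not matched in the table.

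Genes that work beside the members were followed in 9 lists holding 76 genes, of which 66 were tested. The lists were also chosen with earlier results of these data known, and their p-values do not allow for that choice. In mimic against mimic control none of the 66 passed in the limma fit, where 0.759% of all genes did. An unadjusted p under 0.05 was found for 10, a cutoff at which no share of all genes was taken. Without mimic replicate 3, 1 passed there as raised and 5 as lowered. In inhibitor against inhibitor control 2 passed as raised and none as lowered, where 1.55% of all genes passed in either direction, and without mimic replicate 3 these counts were 2 and 2. In inhibitor control against mimic control 3 passed as raised and 6 as lowered, beside 4.74% and 5.38% of all genes, and 6 and 12 without mimic replicate 3. Among all 16468 genes tested, the fit without mimic replicate 3 called 466 as raised and 331 as lowered in mimic against mimic control. These counts were 332 and 321 in inhibitor against inhibitor control, and 1810 and 1941 in inhibitor control against mimic control.

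The proteoglycan linker list, which holds the enzymes around B4GALT7, had 1 of 6 genes pass. B3GALT6, which adds the second galactose after B4GALT7, was raised in inhibitor control against mimic control, from a mean of 870.1 to 1320.1 (log2 0.60 ± 0.15, SE, adjusted p = 0.0307, limma). XYLT1, XYLT2, B3GAT3, FAM20B and PXYLP1 passed in no comparison, and the list's median log2 difference in that comparison was 0.03, against -0.02 over all genes. Of 15 tested N-glycan genes, MGAT1 and MGAT2, which start the branches that B4GALT1 extends, were raised there (log2 0.57 and 0.31, adjusted p = 0.0214 and 0.0345, limma). In the same comparison MAN2A1, the mannosidase that acts between them, and FUT8, the core fucosyltransferase, were lowered (log2 -0.43 and -0.42, adjusted p = 0.0181 and 0.0358, limma). The list's median there was -0.26.

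Of 11 tested genes that supply UDP-sugars, SLC35D1, a transporter of UDP-glucuronic acid and UDP-N-acetylgalactosamine, was lowered in inhibitor control against mimic control. Its mean was 621 in the mimic control and 392 in the inhibitor control (log2 -0.66 ± 0.11, SE, adjusted p = 0.00579, limma). These groups did not overlap, as for 41.2% of all genes. SLC35D1 was also lower in the mimic than in the mimic control (log2 -0.47, adjusted p = 0.0771, limma), with no overlap, as for 16.4% of all genes. It passed there with library weights (adjusted p = 0.0230, limma). The SLC35D1 call in inhibitor control against mimic control was the only one among the members and listed genes that held when each of the 12 libraries was left out in turn. The other 8 listed-gene calls in this comparison were each lost without any 1 of 4 to 7 libraries, which were libraries of the 2 groups compared and, for MGAT2, also inhibitor replicate 1, with an adjusted p of up to 0.131. Of 7 glycolipid genes, ST3GAL5, which sialylates the lactosylceramide that B4GALT5 and B4GALT6 make, was lowered there (log2 -0.69 ± 0.17, SE, adjusted p = 0.0290, limma). Among 3 tested keratan sulfate genes and 5 other galactosyltransferases none passed in any comparison of the 12 libraries fitted without weights. Their smallest p-values were those of CHST2 in mimic against mimic control (log2 -0.63, adjusted p = 0.210) and B3GALT1 in inhibitor control against mimic control (log2 -0.81, adjusted p = 0.0993, limma). CHST2, a sulfotransferase, was 300.5, 219.8 and 249 in the mimic control and 134, 132 and 253 in the mimic, where replicate 3 lay with the controls. Without mimic replicate 3 CHST2 passed as lowered (log2 -0.94, adjusted p = 0.00336, limma), and with library weights CHST2 (adjusted p = 0.0105) and B3GALT1 (adjusted p = 0.0329) passed. The galactosyltransferase C1GALT1 passed in inhibitor control against mimic control without mimic replicate 3, with library weights and with the 6 libraries compared alone.

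On the Notch side, 1 of 9 tested genes for other sugars on EGF and thrombospondin repeats passed. GXYLT1, which adds xylose to the glucose that POGLUT1 places, was lowered in inhibitor control against mimic control (log2 -0.51 ± 0.11, SE, adjusted p = 0.0202, limma). Of 6 tested proteins that carry such repeats, NOTCH2 was lowered there, from a mean of 1273 to 958 (log2 -0.41 ± 0.095, SE, adjusted p = 0.0220, limma).

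Of 4 tested Notch target genes, HES1 and HEY1 were raised in inhibitor against inhibitor control. HES1, a transcriptional repressor, was low throughout, at 9.65, 5.16 and 7.02 in the inhibitor control and 31.2, 21.9 and 22.0 in the inhibitor (log2 1.74 ± 0.36, SE, adjusted p = 0.0333, limma). HEY1, a related repressor, was 79.0, 64.7 and 68.0 in the inhibitor control and 127, 97.5 and 128 in the inhibitor (log2 0.73 ± 0.15, SE, adjusted p = 0.0326, limma). In 25.2% of all genes these groups did not overlap, and in both HES1 and HEY1 all 3 inhibitor libraries lay above the 3 control libraries. In the mimic they had log2 differences of -0.48 (adjusted p = 0.634) and -0.35 (adjusted p = 0.343, limma), and the difference between both effects (mimic minus inhibitor) passed for HEY1 (log2 -1.07 ± 0.21, SE, adjusted p = 0.0416) and not for HES1 (-2.22 ± 0.52, SE, adjusted p = 0.0692, limma, or -2.45 and 0.0344 without mimic replicate 3). Each inhibitor call was lost in 7 of the 12 fits that left out 1 library, namely each of the 3 inhibitor control libraries, mimic control replicate 1, inhibitor replicates 1 and 3, and inhibitor replicate 2 for HES1 or mimic control replicate 2 for HEY1. The adjusted p reached 0.165 for HES1 and 0.154 for HEY1 (limma). With the 6 libraries compared alone neither passed (adjusted p = 0.0501 for HES1 and 0.0597 for HEY1), and with no filter HES1 did not (0.0625). In inhibitor control against mimic control HEY1 had a log2 difference of -0.50 (adjusted p = 0.0535, or 0.0317 without mimic replicate 3, limma). HES1 had one of -0.94 there (adjusted p = 0.112, limma), with means of 7.28 in the inhibitor control and 14.3 in the mimic control. For both genes the 2 control groups did not overlap, as for 41.2% of all genes. HES4 and HEY2 passed in no comparison of the 12 libraries fitted without weights, and HEYL was listed at 0 in all 12 libraries. HES4 passed in mimic against mimic control without mimic replicate 3. It also passed in inhibitor control against mimic control with library weights and with the 6 libraries compared alone.

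**Figure D5:**
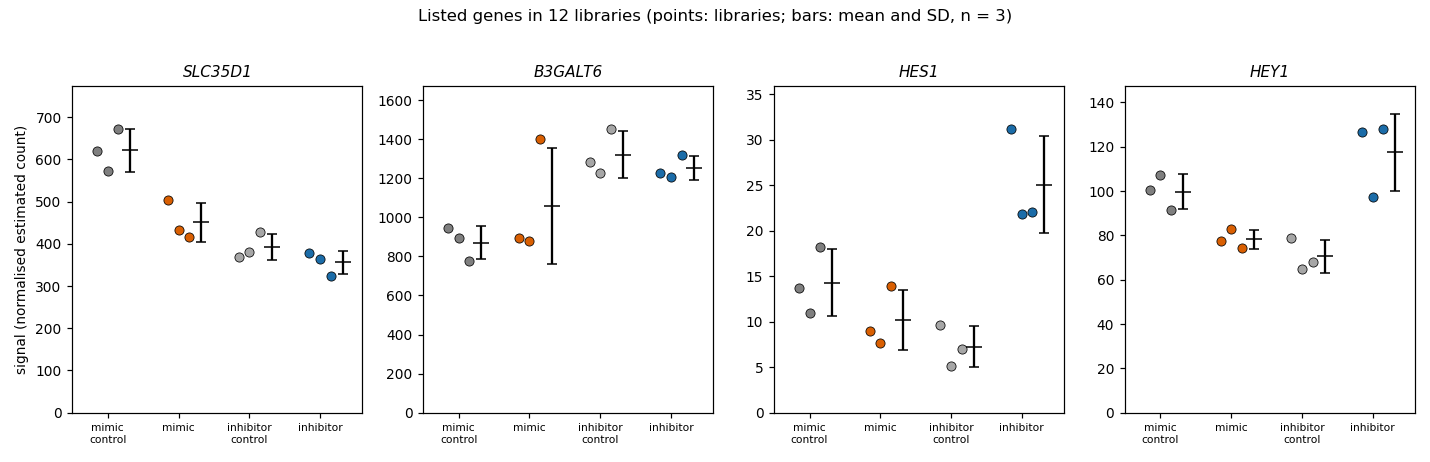
Signal of SLC35D1, B3GALT6, HES1 and HEY1 on linear axes from 0, with 1 point per library and the mean and SD (n = 3). SLC35D1 is highest in the mimic control (mean 621), HES1 is highest in the inhibitor at 21.9 to 31.2, and 1 mimic library of B3GALT6 lies at 1401 beside 880.02 and 894.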

How the data were processed

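Total RNA of the 12 libraries was sequenced, and the authors processed the reads with FastQC, Trim Galore, kallisto and sleuth on hg38, per the submitters' processing notes. No source used here gives versions, annotation or filters. The unit of the deposited files is a signal, estimated counts summed per Ensembl gene over a library's size factor, with no length correction. Between 73.4% and 76.2% of low single-transcript values lay within 0.02 of a whole step, which gave estimated totals of 10530000 to 12470000 counts per library.

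Of 40490 identifiers, 35521 had a symbol. Values were analysed as log2(value + 0.5), so fold changes of low genes are understated. Genes with at least 5 in at least 47% of libraries were tested, which left 16468 genes and all 10 members. A model of 4 group means over 12 libraries was fitted in limma 3.58.1 (R 4.3.3, eBayes with an intensity trend), two-sided, with Benjamini-Hochberg adjustment over all genes tested and a threshold of 0.05. The code was tested on simulated data. Levels per kb used merged exons of GENCODE release 29, and ranges within a group decided overlap. Python 3.11.15, numpy 2.4.6, pandas 2.3.3 and matplotlib 3.10.9 were used for the rest.

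Named genes were all members, the 6 genes most correlated with B4GALT1 and with POGLUT3 among genes with a mean of at least 20, up to 4 passing genes per list by p (otherwise the gene with the smallest p), and overlapping or neighbouring genes. The members and lists were chosen with earlier results of these data known. Same-numbered libraries were not paired (the highest of 18 correlations of their deviations was 0.063). Pseudocount, filter, scaling, weights, trend, libraries, block, transcript length and correlation were varied.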

Additional observations from a re-analysis of the deposited data

Results flagged for a closer look

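The mimic effect minus the inhibitor effect passed for HEY1, at -1.07 on the log2 scale (adjusted p = 0.0416, limma). The 2 effects start from different controls, with a mean of 99.7 in the mimic control and 70.5 in the inhibitor control. The mimic mean of 78.2 lay between these control means. All 3 mimic libraries lay below the mimic control mean and all 3 inhibitor libraries above the inhibitor control mean. The call was lost in 10 of the 12 fits that left out 1 library, all but those without mimic replicate 3 or inhibitor replicate 2, with an adjusted p of up to 0.126.

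B4GALT1 had all 3 mimic libraries above the mimic control mean and all 3 inhibitor libraries below the inhibitor control mean. The inhibitor difference was small (log2 -0.19), and groups in that comparison did not overlap for 25.2% of all genes. The mimic effect minus the inhibitor effect was 2.05 on the log2 scale. This difference was not tested, because these values chose the gene, and it rests on a mimic control group that lay below the inhibitor control as well.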

How the results depend on the processing

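For B4GALT1 and POGLUT3 no setting moved a log2 difference by more than the spread between replicates. Over all alternatives the mimic difference of B4GALT1 lay between 1.81 and 1.92 and that of POGLUT3 between 1.17 and 1.38, and the difference of the 2 control groups between 1.73 and 1.79 and between 1.00 and 1.19. Among the 8 tested members, none passed in mimic against mimic control or in the difference between effects under any of the 23 or 22 alternatives, and in inhibitor against inhibitor control only POGLUT1 did, with array weights (1 member).

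In inhibitor control against mimic control the count of members called was less stable. It was 0 with no filter and with no intensity trend, 2 (B4GALT3 and B4GALT4) with a filter of at least 20 and with either rescaling, 4 with the 6 libraries alone, 5 with array weights, and 0 to 4 when 1 library was left out. With the replicate block it was 0 (B4GALT3 adjusted p = 0.0648), and the block gave 1017 called genes in that comparison and 74 in the difference between effects. The same-numbered libraries share only a number, and 3 of 12 libraries correlated best with their own number. MGAT2 (adjusted p = 0.0633), FUT8 (0.0621) and both calls of HEY1 (0.0663 and 0.0790) were also lost with the block. Of the other named calls, B3GALT6, ST3GAL5 and FUT8 were lost with no filter (adjusted p = 0.0582 to 0.0702) and these 3, MGAT2 and NOTCH2 with no intensity trend (0.0503 to 0.0693), as was the difference between effects of HEY1 under both (0.0539 and 0.0546).

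Counts of genes called moved more. In mimic against mimic control, 125 genes became 20 with the 6 libraries alone, 529 with array weights, 77 with no intensity trend and 46 to 797 leaving out 1 library. In inhibitor against inhibitor control, 255 (126 raised, 129 lowered; 108 and 207 rescaled to the same total) became 1260 with array weights, 155 with no intensity trend and 88 to 653 leaving out 1 library. In inhibitor control against mimic control, 1667 became 962 with no filter, 3913 with the 6 libraries alone, 4623 with array weights, 904 with no intensity trend and 271 to 3751 leaving out 1 library. The difference between effects gave 140, and 76 with no filter, 624 with array weights, 41 with no intensity trend and 36 to 492 leaving out 1 library. Among the fits that left out 1 library, each highest count was the one without mimic replicate 3. The cause was not tested.

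By the longest transcript in place of merged exons, 7 to 10 members kept their rank in a group, and the changes were among B4GALT4, B4GALT6 and POGLUT1. By Spearman correlation 0 of the 6 genes most like B4GALT1 and 2 of the 6 most like POGLUT3 were the same, against 6 and 6 with a pseudocount of 5. Low signal limits HES1 and C11orf65, and 3 libraries a group limit all tests.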
